A study of Rattus norvegicus with 16 samples.

Results

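The genes described here are 10 early-response transcripts, namely the Fos family members Fos, Fosb, Fosl1 and Fosl2, the Jun family members Jun and Junb, the zinc-finger factors Egr1 and Egr2, the stress-induced factor Atf3 and the short-lived protein gene Ier3. Each was found by the gene name given to its probes in the array files, and a gene with several probes was read from its brightest probe, by mean over all arrays. All 10 of the 10 listed genes were found and passed the filter on dim probes, out of 20215 genes tested. The genes were chosen by function with log2 signals of these arrays already known, among them lower immediate-early signals with olaparib in BRCA1+/- rats and a Fos difference in wild-type rats that turned between slides. Group differences and counts over the 10 genes are therefore given as a description, and nothing is supported with them.

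The arrays measured RNA of whole ovaries from 16 female rats of the Sprague-Dawley stock Jcl:SD, with 1 array per rat and 4 rats in each of 4 groups. The groups were wild-type rats with vehicle (WT vehicle), wild-type rats with olaparib (WT olaparib), rats heterozygous for Brca1 with vehicle (BRCA1+/- vehicle) and heterozygous rats with olaparib (BRCA1+/- olaparib). Olaparib, an inhibitor of the poly(ADP-ribose) polymerases, was injected subcutaneously each day for 14 days from 3 weeks of age at 50 mg/kg, and tissue was collected 24 h after the final dose. What the vehicle was, how it was given and how the Brca1 allele was made are not given in the sources used here.

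Immediate-early genes are transcribed within minutes of a stimulus, without new protein synthesis, and their RNAs decay quickly. Growth factor and MAP kinase signals reach them through serum response factor with its ternary complex partners, which bind CArG boxes, and through CREB at cyclic AMP elements. Fos and Jun proteins pair through leucine zippers into the AP-1 factor. Egr proteins bind GC-rich sites, have Nab1 and Nab2 as corepressors and induce Nab2. In the ovary, gonadotropin stimulation of follicles is a known inducer of Fos, Fosl2, Junb and Egr1.

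The RefSeq promoter table for the rat (build GRCr8) held 6 of the 10 genes, Fosb, Fosl1, Fosl2, Junb, Egr1 and Egr2, and did not list Fos, Jun, Atf3 or Ier3. The 250 bases before the gene start were searched on both strands for the CArG box, for the cyclic AMP response element TGACGTCA and its core TGACG (which the full element contains), for the AP-1 site TGANTCA and for the Egr site GCGNGGGCG. Over all 33469 promoters of that length, the CArG box was found in 1.5%, TGACGTCA in 1.59%, TGACG in 18.2%, TGANTCA in 6.34% and GCGNGGGCG in 4.29%. Egr1 held a CArG box 105 bases and another 83 bases before its start, with TGACG at 135 and 66 bases. The Egr2 window held a CArG box at 83 bases and TGACG at 66 bases. TGACG was found in Fosl1 at 148 and 84 bases and in Junb at 155 bases, and GCGNGGGCG in Fosl2 at 249 bases. TGACGTCA and TGANTCA were found in none of the 6 windows, and Fosb held none of the 5 motifs. The windows of Fosl1, Junb and Egr2 are shown 5′ to 3′ as examples of a Fos, a Jun and an Egr gene that are followed below, with matches to the CArG box and to TGACG, on either strand, in capitals. The Fosl1 window is chr1:212183635-212183884 on the plus strand, the Junb window chr19:40080876-40081125 on the plus strand and the Egr2 window chr20:21054442-21054691 on the minus strand.
Fosl1: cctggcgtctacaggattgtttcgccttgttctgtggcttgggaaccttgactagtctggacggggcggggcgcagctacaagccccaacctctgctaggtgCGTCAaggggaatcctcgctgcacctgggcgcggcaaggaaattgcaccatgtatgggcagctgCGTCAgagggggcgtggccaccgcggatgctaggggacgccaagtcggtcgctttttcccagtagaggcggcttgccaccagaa
Junb: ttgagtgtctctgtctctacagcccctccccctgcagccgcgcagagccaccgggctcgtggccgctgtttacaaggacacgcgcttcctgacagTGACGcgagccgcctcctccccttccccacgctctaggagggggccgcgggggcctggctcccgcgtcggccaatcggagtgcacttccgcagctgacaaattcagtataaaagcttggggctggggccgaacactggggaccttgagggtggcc
Egr2: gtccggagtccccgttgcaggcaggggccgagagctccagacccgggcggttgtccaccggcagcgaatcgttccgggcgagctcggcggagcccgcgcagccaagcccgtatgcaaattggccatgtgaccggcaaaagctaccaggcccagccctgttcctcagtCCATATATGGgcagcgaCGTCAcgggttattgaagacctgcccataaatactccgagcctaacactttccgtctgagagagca
A match is a description of letters in the window and was not tested as a site.

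Values are log2 signals, the log2 of the background-corrected spot signal less that array's 75th percentile on the same scale, so that 0 is the percentile and a step of 1 is a doubling. That percentile was 202.4 to 566 signal units over the arrays, 55.47 to 60.7% of probes were well above background, and no spot was saturated. Markers of the ovary were present, with 11 of 12 granulosa genes, 8 of 8 theca and steroid genes and 10 of 11 tested oocyte genes well above background on all 16 arrays. Brca1 read -1.12 ± 0.31 (SD, n = 4) in BRCA1+/- vehicle against -0.44 ± 0.36 in WT vehicle, and -0.72 ± 0.36 in BRCA1+/- olaparib against -0.56 ± 0.49 in WT olaparib. Both genotype differences of Brca1 missed limma's threshold (adjusted p 0.862 and 1). Genes of oviduct and ciliated epithelium stood apart on 6 arrays (WT olaparib replicates 1 and 3, BRCA1+/- vehicle replicates 3 and 4, BRCA1+/- olaparib replicates 3 and 4), with a mean centred signal of 1.21 to 3.47 against -2.20 to -0.79 on the other 10. Results on the early-response genes are given below with and without these 6 arrays. Leaving them out keeps 4 WT vehicle rats, WT olaparib replicates 2 and 4, and replicates 1 and 2 (slide 1) of both BRCA1+/- groups, so that it also changes the balance of the slides. Replicates 1 and 2 of every group were hybridised on slide 1 and replicates 3 and 4 on slide 2, and each group filled the same column of both slides, so that group and array column cannot be told apart. The labels number the rats within each group, and the spread between arrays holds the difference between rats together with that of the measurement.

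Fos encodes the founding AP-1 subunit, which binds DNA only as a dimer with a Jun protein, and its probe lies at chr6:109561941-109562000 in the build rn4 that the array files name. In WT vehicle Fos read -2.75, -1.90, -1.48 and -2.41 on replicates 1 to 4. With olaparib the wild-type rats split, with -2.59 and -2.19 on replicates 1 and 2 and 0.95 and 0.73 on replicates 3 and 4. The first pair was on slide 1 and lay within the range of the wild-type vehicle rats, while the pair on slide 2 held the highest Fos signals of the study. BRCA1+/- vehicle rats read 0.48, -0.62, -0.50 and -0.13, all above the 4 WT vehicle rats, and BRCA1+/- olaparib rats read -2.77, -0.65, -2.19 and -2.12, all below the 4 BRCA1+/- vehicle rats. Replicate 2 of BRCA1+/- olaparib missed the vehicle range narrowly, by the distance from -0.65 to -0.62. Group means ran from BRCA1+/- vehicle (-0.19) through WT olaparib (-0.78) and BRCA1+/- olaparib (-1.93) to WT vehicle (-2.14), and the last 2 differed by less than the SD of BRCA1+/- olaparib, 0.90.

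Fosb, which encodes a full-length AP-1 subunit and a truncated splice form that lasts longer in cells, was read at chr1:78666646-78666705 (rn4). WT vehicle rats read -4.86, -4.91, -3.99 and -5.11, and WT olaparib rats -5.12, -4.68, -2.22 and -1.43. In BRCA1+/- vehicle the values were -0.50, -4.40, -2.10 and -1.48, and in BRCA1+/- olaparib -5.19, -2.34, -4.90 and -5.05. Fosb thus lay between -5.19 and -3.99 on 10 arrays and between -2.34 and -0.50 on the other 6, of which 3 were BRCA1+/- vehicle, 2 WT olaparib on slide 2 and 1 BRCA1+/- olaparib.

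Fosl1 and Fosl2 encode Fra-1 and Fra-2, which pair with Jun proteins but lack the strong activation domain of Fos. Fosl1, read at chr1:208099035-208099094 (rn4), was at -4.19, -2.93, -2.83 and -3.04 in WT vehicle and at 0.99, -1.21, -0.07 and 0.63 in BRCA1+/- vehicle, without overlap. WT olaparib rats read -5.49, -4.01, -5.58 and 1.32, where replicates 1 and 3 were not well above background and replicate 4 was the highest array of all 16. BRCA1+/- olaparib rats read -3.64, -1.17, -1.72 and -3.64, and replicate 2, at -1.17, lay just above the lowest BRCA1+/- vehicle array. Fosl1 thus ran from signals not well above background to 1.32 within 1 group. Fosl2, for which the array files give no position, spanned a 4.84-fold range, with -0.03, -0.14, 1.40 and 0.59 in WT vehicle and -0.87, 0.12, 0.02 and 1.36 in WT olaparib. Its BRCA1+/- vehicle values of 0.99, 0.46, 0.76 and 1.02 all lay above the BRCA1+/- olaparib values of -0.08, 0.40, 0.32 and 0.41, by a narrow gap.

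Jun, which can pair with itself or with a Fos protein, and Junb, a weaker activator that can oppose Jun, showed no such separation. Jun was read at chr5:115358764-115358823 (rn4) and lay between 2.96 and 4.27 on all arrays, with group means of 3.74 ± 0.54 in WT vehicle, 3.58 ± 0.44 in WT olaparib, 3.59 ± 0.54 in BRCA1+/- vehicle and 3.47 ± 0.38 in BRCA1+/- olaparib (SD, n = 4). The order of the Jun means is within their spread. Junb, at chr19:24832781-24832840 (rn4), lay between -0.98 and 0.68, with means of -0.17 ± 0.67, -0.02 ± 0.64, -0.09 ± 0.51 and -0.56 ± 0.35 in the same order of groups. All 4 Junb ranges overlapped, and the highest array was BRCA1+/- vehicle replicate 1.

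Egr1, a zinc-finger factor that gonadotropins induce in granulosa cells, was read at chr18:27346058-27346117 (rn4). Its log2 signals were 0.45, 1.06, 1.03 and 1.40 in WT vehicle and -0.02, 0.83, 2.55 and 2.59 in WT olaparib. BRCA1+/- vehicle rats read 3.03, 0.82, 1.86 and 2.17 and BRCA1+/- olaparib rats 0.47, 2.32, 0.60 and 0.85. The 6 highest arrays of Egr1, as of Fosb, were WT olaparib replicates 3 and 4, BRCA1+/- vehicle replicates 1, 3 and 4, and BRCA1+/- olaparib replicate 2, and every pair of groups overlapped. Egr2 is the related factor known for hindbrain patterning and myelination, and was read at chr20:21883940-21883999 (rn4). It was low in most rats, at -6.05, -4.19, -3.15 and -2.55 in WT vehicle and -5.65, -4.62, -3.58 and -0.40 in WT olaparib, with replicate 1 of both groups not well above background. The BRCA1+/- vehicle rats read -1.07, -4.70, -2.83 and -0.32 and the BRCA1+/- olaparib rats -4.80, -2.81, -4.62 and -3.30. The 3 highest Egr2 arrays, BRCA1+/- vehicle replicates 4 and 1 and WT olaparib replicate 4, stood apart from the rest, the next of which was at -2.55.

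Atf3, a stress-induced factor of the same zipper class that mostly represses, has a probe that the array files place only in part, at chr13:107191582-107191614 (rn4). Its values were -1.35, 0.01, 0.92 and 0.19 in WT vehicle, 0.37, -0.55, 0.57 and 0.71 in WT olaparib, -0.13, 0.51, 1.17 and 0.03 in BRCA1+/- vehicle and -1.23, -0.47, 0.85 and 0.02 in BRCA1+/- olaparib. Groups overlapped throughout, and replicate 3 was the highest array in 3 of the 4 groups. Ier3, whose short-lived product modulates survival and ERK signalling, was read at chr20:3076832-3076891 (rn4) and ranged from 1.16 to 3.17. It read 1.60 ± 0.53 in WT vehicle, 2.15 ± 0.26 in WT olaparib, 2.79 ± 0.46 in BRCA1+/- vehicle and 2.13 ± 0.65 in BRCA1+/- olaparib (SD, n = 4). In BRCA1+/- vehicle 3 of the 4 Ier3 values lay above every other array of the study, and replicate 2, at 2.13, did not.

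**Figure D1:**
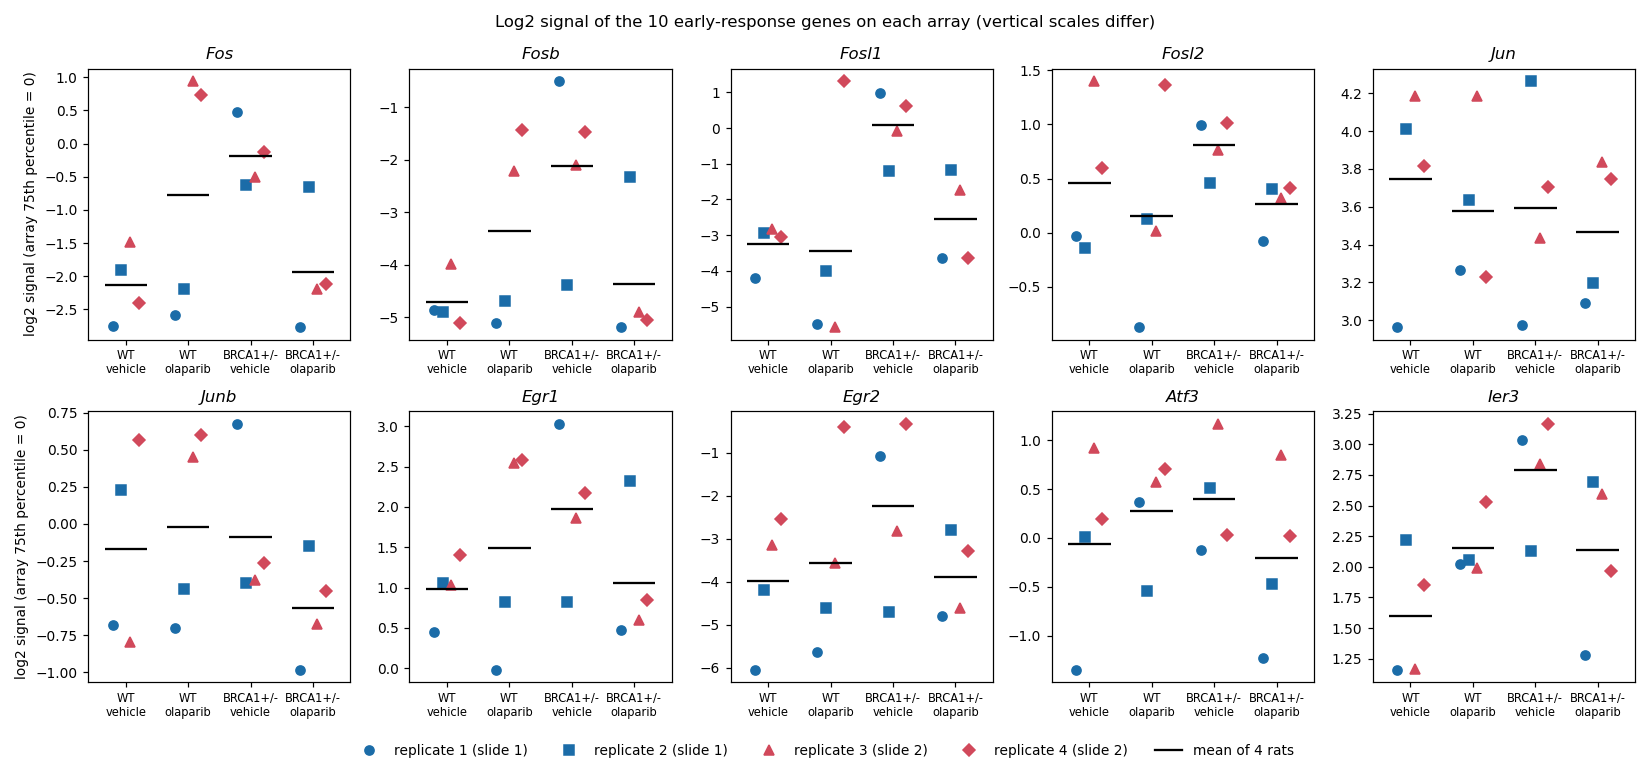
Log2 signal of each of the 10 genes (vertical axes, 0 is the 75th percentile of the array, scales differ between panels) on each array by group (horizontal axes). Symbols mark the replicate number, blue is slide 1 and red slide 2, and bars are means of 4 rats. The BRCA1+/- vehicle bar is the highest in 8 of the 10 panels, and for Fos the WT olaparib rats split between -2.59 and -2.19 on slide 1 and 0.95 and 0.73 on slide 2.

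Across the 4 groups the BRCA1+/- vehicle mean was the highest for 8 of the 10 genes, the exceptions being Jun, highest in WT vehicle, and Junb, highest in WT olaparib. The lowest mean belonged to WT vehicle for 5 genes, to BRCA1+/- olaparib for 3 and to WT olaparib for 2. Comparisons within this design share groups: the BRCA1+/- vehicle rats enter both the genotype comparison with vehicle and the olaparib comparison in BRCA1+/-, so those are not separate evidence. In whole ovaries, fewer cells of a type and less RNA per cell cannot be told apart.

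Olaparib against vehicle in BRCA1+/- rats gave lower signals for all 10 genes, where 46.7% of all genes tested were lower, and the median difference was -0.79 on the log2 scale against 0.02 over all genes. Fosl1 differed most, by -2.63 ± 1.19 (limma SE, 4 against 4 rats), followed by Fosb at -2.25 ± 0.92, Fos at -1.74 ± 0.72 and Egr2 at -1.65 ± 1.14. For Fos that is a 3.34-fold lower signal, with a 95% interval of the log2 difference from -3.28 to -0.20. Egr1 differed by -0.91 ± 0.60, Ier3 by -0.66 ± 0.34, Atf3 by -0.60 ± 0.50, Fosl2 by -0.54 ± 0.41 and Junb by -0.47 ± 0.38. Jun differed by -0.13 ± 0.33 (95% interval -0.83 to 0.58) on the probe used and by -0.49 on its second probe. Leaving out 1 array brought Egr2 to -1.01 (without BRCA1+/- vehicle replicate 4), Egr1 to -0.55 and Junb to -0.22 (without BRCA1+/- vehicle replicate 1), and Ier3 to -0.38 and Atf3 to -0.26 (without BRCA1+/- olaparib replicate 1). The ranges of the groups did not overlap for 2 genes, Fos and Fosl2, and 0.608% of all genes were lower without overlap. Limma, with Benjamini-Hochberg adjustment over all 20215 genes, called none of the 10 and none of all genes in this comparison (0% called). At an unadjusted p under 0.05 limma held 3 of the 10 (Fos, Fosb, Fosl1) and 1.17% of all genes. Within slide 1 all 10 genes were lower (median -0.81) and within slide 2 9 of 10 were lower (median -1.01), with Jun at 0.23. The slide 1 comparison, of 2 against 2 rats, is also the one that remains without the 6 arrays of high oviduct signal.

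BRCA1+/- against wild-type rats with vehicle gave higher signals for 9 of the 10 genes, against 42.2% of all genes, with a median of 1.09 against -0.055 over all genes. The largest differences were those of 3 of the 4 Fos family genes, with 3.33 ± 1.19 for Fosl1 (10.1-fold), 2.60 ± 0.92 for Fosb (6.06-fold) and 1.94 ± 0.72 for Fos (3.84-fold). Egr2 followed at 1.76 ± 1.14, then Ier3 at 1.19 ± 0.34 and Egr1 at 0.99 ± 0.60. Atf3 (0.45 ± 0.50), Fosl2 (0.35 ± 0.41), Junb (0.08 ± 0.38) and Jun (-0.15 ± 0.33) differed by less than their standard errors. Ranges did not overlap for Fos and Fosl1, and 1.25% of all genes were higher without overlap. Leaving out 1 array brought Egr2 to 1.07 and Atf3 to 0.024 (without WT vehicle replicate 1), Egr1 to 0.63 (without BRCA1+/- vehicle replicate 1) and Fosl2 to 0.15 (without WT vehicle replicate 2). Limma called none of the 10 and none of all genes (0% called), and at an unadjusted p under 0.05 it held 4 of the 10 (Fos, Fosb, Fosl1, Ier3) and 5.5% of all genes. All 10 genes were higher within slide 1 (median 1.03), and 7 were within slide 2 (median 1.04), where Fosl2, Jun and Junb were lower. Without the 6 arrays of high oviduct signal 9 of 10 were higher (median 0.96), in a comparison of 2 BRCA1+/- rats of slide 1 with 4 wild-type rats of both slides.

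Olaparib in wild-type rats gave 7 of the 10 genes higher, against 39.2% of all genes, with a median of 0.38. Fos at 1.36 ± 0.72 and Fosb at 1.36 ± 0.92 had the largest differences, and the other 8 lay between -0.30 and 0.55. Fos was at 0.79 without WT olaparib replicate 3, and Fosb at 0.71 and Egr1 at 0.13 without WT olaparib replicate 4. In the same comparison 6 of 6 tested adipocyte genes (median 3.11, 5 at an unadjusted p under 0.05), 7 of 8 surface epithelium genes (median 1.18) and 11 of 11 oviduct genes (median 2.57) were higher, with none called by limma. None of the 10 was called by limma (0% of all genes called), and none had an unadjusted p under 0.05, where 4.33% of all genes did. The direction differed between the slides, as was known for Fos when the genes were chosen. Within slide 1 2 of the 10 were higher (median -0.05) and within slide 2 8 were (median 0.78). Fosb was at -0.02 and 2.73 and Egr1 at -0.35 and 1.35 on slides 1 and 2. Each slide compares 2 against 2 different rats, so slide and rat cannot be told apart. Genotype with olaparib likewise turned, with 7 of 10 higher within slide 1 (median 0.61) and 2 of 10 within slide 2 (median -0.82), and a median of -0.37 over both slides, with 8 of the 10 lower against 46.8% of all genes. Without the 6 arrays of high oviduct signal 9 of 10 were higher with olaparib in wild-type rats (median 0.71), and all 10 were lower in BRCA1+/- than in wild-type rats under olaparib (median -0.68), with 2 rats left in either olaparib group. None of the 10 was called in that comparison (0% of all genes called) or had an unadjusted p under 0.05 (0.915% of all genes).

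The interaction subtracts the olaparib difference of wild-type rats from that of BRCA1+/- rats, and it was negative for 9 of the 10 genes, against 42.1% of all genes. It was -3.61 ± 1.31 for Fosb, -3.10 ± 1.02 for Fos, -2.43 ± 1.69 for Fosl1, -2.08 ± 1.61 for Egr2 and 0.04 ± 0.46 for Jun. Without WT olaparib replicate 4 it was -0.85 for Fosl1 and -1.02 for Egr2. Limma called none of the 10 interactions (0% of all genes called), and 3 of the 10 (Fos, Fosb, Ier3) had an unadjusted p under 0.05, as did 3.44% of all genes. For Fos the interaction was -1.57 within slide 1 and -4.63 within slide 2, and for Fosb -1.30 and -5.91. Without the 6 arrays of high oviduct signal it was negative for all 10 genes (median -1.27). A difference between genotypes in the response of these genes to olaparib was thus not called by limma.

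**Figure D2:**
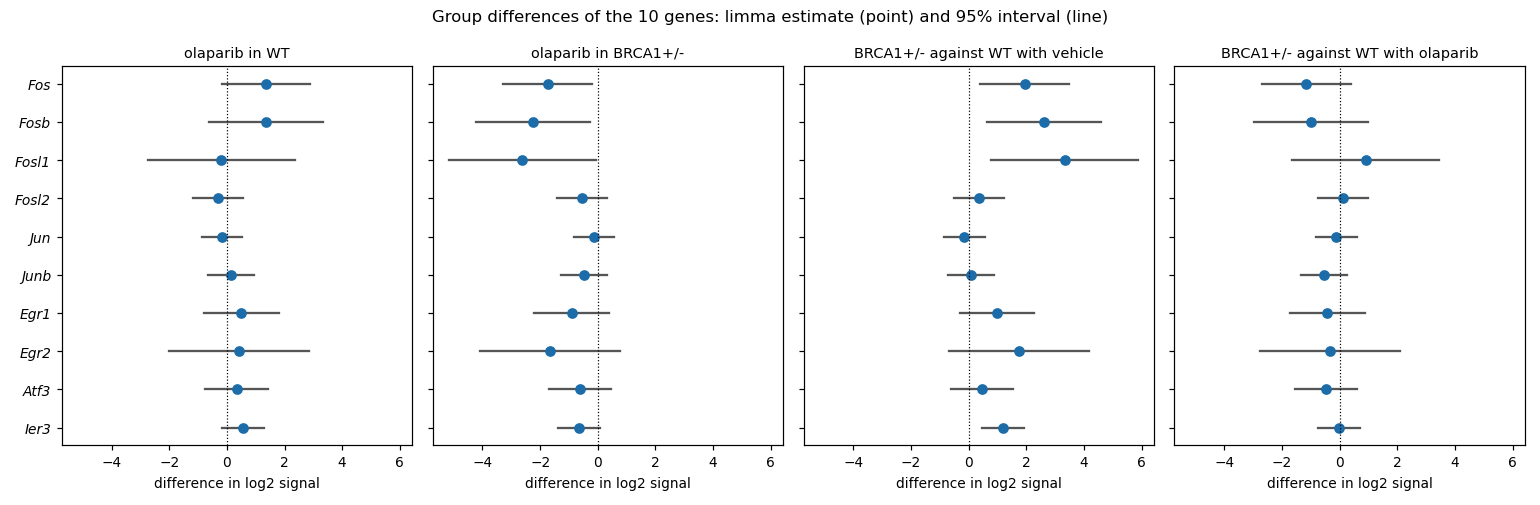
Differences in log2 signal (horizontal axes) of the 10 genes (rows) in 4 comparisons between groups of 4 rats, as limma estimates (points) with 95% intervals (lines). With olaparib in BRCA1+/- all 10 points lie below 0, and the intervals of Fos, Fosb and Fosl1 leave out 0 there before any adjustment for the number of genes. No gene was called after adjustment in any panel.

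Arrays were high or low in several of these genes together. On WT olaparib replicate 4 and on BRCA1+/- vehicle replicate 1, 8 of the 10 genes were among their 4 highest arrays, and on BRCA1+/- vehicle replicate 4 6 were. On WT vehicle replicate 1 and BRCA1+/- olaparib replicate 1, 9 of the 10 were among their 4 lowest arrays, and on WT olaparib replicate 1 7 were. The mean centred log2 signal over the 10 genes was 1.44, 1.36 and 1.17 on the first 3 arrays and -1.22, -1.07 and -1.16 on the last 3. Within BRCA1+/- olaparib it was 0.42 on replicate 2 and -1.07, -0.27 and -0.44 on the others, and within BRCA1+/- vehicle 0.00064 on replicate 2 against 1.36, 0.73 and 1.17. Replicate 2 was thus the rat nearest to the other treatment in both BRCA1+/- groups.

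**Figure D3:**
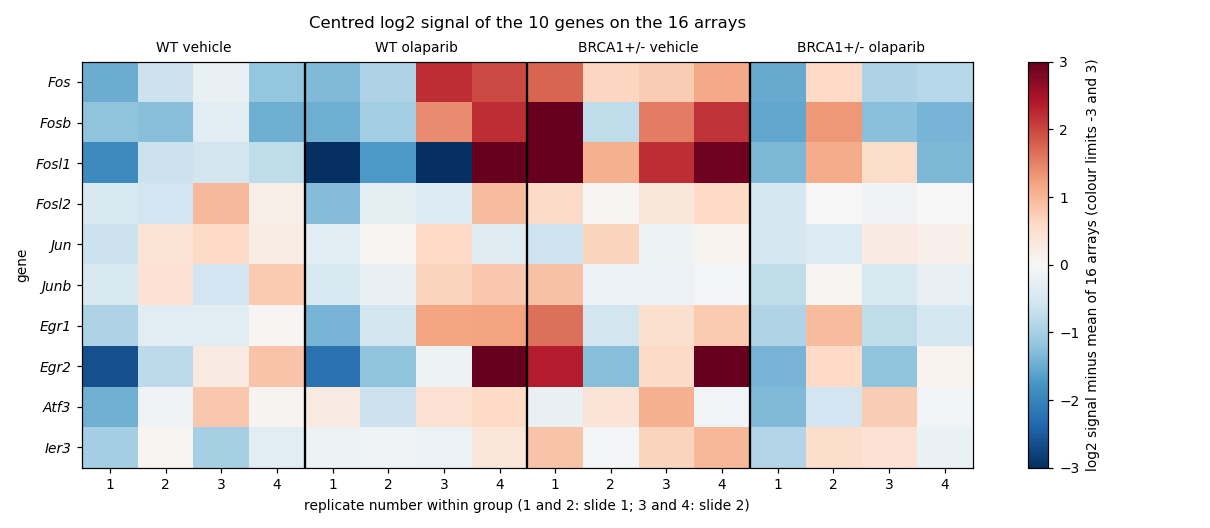
Log2 signal of each gene (rows) on each array (columns, by group and replicate number) minus the mean of the gene over the 16 arrays, from blue (lower) to red (higher), with values past -3 or 3 shown in the end colours. WT olaparib replicate 4 and BRCA1+/- vehicle replicate 1 are red in most rows, and WT vehicle, WT olaparib and BRCA1+/- olaparib replicate 1 are blue in most.

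The slides crossed the groups, with 2 rats of each group on either slide. All 10 genes were higher on slide 2 than on slide 1 with group in the model, against 45.2% of all genes, and the median difference was 0.67 against -0.04 over all genes. None of the 10 was called by limma, where 7.9% of all genes were, and 3 of the 10 (Fosl2, Egr2, Atf3) had an unadjusted p under 0.05, where 23.9% of all genes did. Egr2 differed by 1.64 ± 0.70, Atf3 by 0.91 ± 0.27, Fosl2 by 0.63 ± 0.24 and Fos by 0.73 ± 0.49, and Junb and Ier3 by 0.19 ± 0.27 and 0.19 ± 0.24. Atf3 was nearest to a call, with an adjusted p of 0.0576 in limma (0.0254 to 0.138 over the alternatives), and passed without WT vehicle replicate 2, WT olaparib replicate 1 or BRCA1+/- vehicle replicate 4, with differences of 1.01, 1.01 and 1.06.

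By replicate number, which also marks the row of the slide, limma's F-test called none of the 10 genes, against 4.77% of all genes, and held 3 (Atf3, Jun, Egr2) at an unadjusted p under 0.05, against 23.5% of all genes. Atf3 averaged -0.58 ± 0.84 on the 4 arrays numbered 1, -0.13 ± 0.49 on those numbered 2, 0.88 ± 0.25 on those numbered 3 and 0.24 ± 0.32 on those numbered 4 (adjusted p 0.0913 in limma, and 0.0248 without WT olaparib replicate 1). Jun averaged 3.07 ± 0.14 on arrays numbered 1 against 3.78 ± 0.47, 3.91 ± 0.36 and 3.63 ± 0.27 on the others. Egr2 averaged -1.64 ± 1.51 on arrays numbered 4 against -4.39 ± 2.28, -4.08 ± 0.88 and -3.55 ± 0.78 on those numbered 1, 2 and 3. Fos, by contrast, averaged -1.91 ± 1.59, -1.34 ± 0.82, -0.81 ± 1.36 and -0.98 ± 1.53, means that lie within the spread of each number. Oviduct genes were also higher on slide 2 in 11 of 11 (median 1.68) and smooth muscle genes in 8 of 8 (median 0.33). Limma called none of these, and 5 of the 11 and 2 of the 8 had an unadjusted p under 0.05 (23.9% of all genes). Other lists went both ways, with 6 of 12 granulosa and 2 of 11 oocyte genes higher. In both BRCA1+/- groups the arrays of high oviduct signal were those of slide 2. What sets the slides and numbers apart in these genes was not tested.

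Arrays of one group differed more in these genes than in most, a spread that also holds the slides and the measurement. The SD within groups had a median of 0.84 over the 10 genes against 0.43 over all genes tested. It was 1.84 for Fosl1, 1.75 for Egr2, 1.42 for Fosb and 1.104 for Fos, at the percentiles 97.8, 97.5, 95.8 and 92.3 of all genes (Fosl1 and Egr2 with 2 arrays not well above background each), and 0.92 for Egr1, at 88.6. Jun and Ier3 were ordinary in this respect, with SDs of 0.48 and 0.50 at the percentiles 57.6 and 59.8. Fosl2, Junb and Atf3 lay between, at the percentiles 71.6, 67.2 and 82.3. The percentiles take no account of brightness, and Fosb, Egr2 and Fosl1 were the dimmest of the 10 (means -3.64, -3.415 and -2.29).

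**Figure D4:**
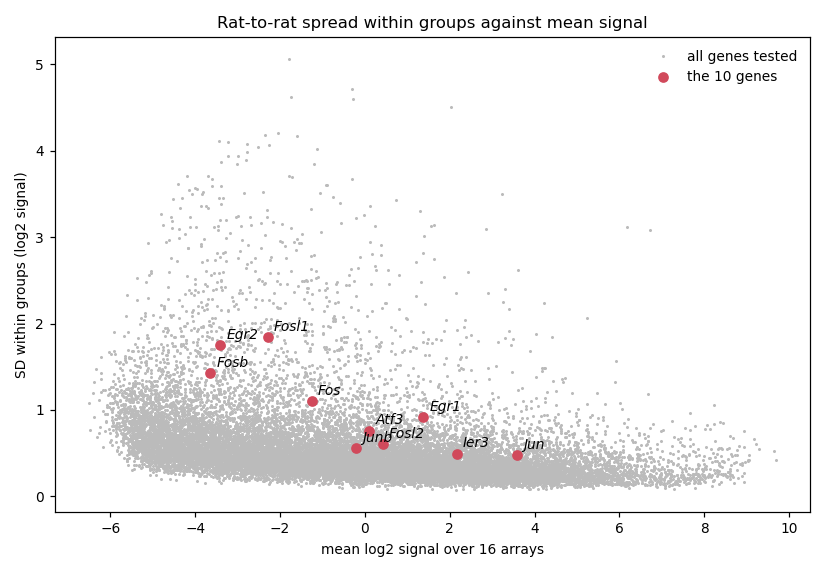
SD of the log2 signal within groups (vertical axis) against mean log2 signal over 16 arrays (horizontal axis), for all 20215 genes (grey) and the 10 genes (red, named). Fosl1, Egr2, Fosb and Fos have SDs of 1.104 to 1.84, and Jun has 0.48.

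After removal of the group means, 39 of the 45 pairs among the 10 genes were positively correlated over the 16 arrays, with a median Pearson r of 0.55 and a range from -0.27 to 0.93. The arrays are shared by all pairs, and coefficients are given as a description. Fosb and Egr1 had r = 0.93 (Spearman rho 0.91, and 0.91 for r without the 2 arrays farthest from the Fosb median). Fos and Egr1 had r = 0.90 (rho 0.89, 0.86 without 2 arrays), Fos and Fosb 0.86 (rho 0.85, 0.84 without 2), and Junb and Egr1 0.81 (rho 0.81, 0.81 without 2). Coefficients within a slide use the same group means over both slides, so they still hold the difference between slides within a group. Within slide 1 and slide 2 they were 0.96 and 0.82 for Fosb with Egr1 and 0.91 and 0.85 for Fos with Egr1. Those of Fos with Fosb were 0.84 and 0.88, and those of Junb with Egr1 0.90 and 0.68. Egr2 had 0.81 with Egr1 (0.95 and 0.58 within slides 1 and 2), 0.77 with Fosb (0.89 and 0.59), 0.79 with Fosl2 (0.69 and 0.71) and 0.75 with Fosl1 (0.93 and 0.69). Fos, Fosb and Egr1 thus varied together over the 16 arrays, also with each group's mean on each slide removed (r 0.81 to 0.885). With 2 rats of a group on a slide, the latter values rest only on the difference between those 2 rats. That difference enters with either sign, so the 16 arrays are not 16 separate points there. On slide 2 alone, Fos and Egr1 did not always go together between the 2 rats of a group. In both wild-type groups replicate 3 was above replicate 4 in Fos and below it in Egr1. WT vehicle read -1.48 and -2.41 in Fos and 1.03 and 1.40 in Egr1. In both BRCA1+/- groups replicate 4 was the higher in both genes. The pairs of Junb with Fos (0.67) and Fosb (0.60) and of Egr2 with Fos (0.68) were weaker on slide 2, at 0.34, 0.20 and 0.37. Jun stood outside, with r = -0.27 with Fosb, 0.15 with Fos and -0.10 with Egr1, and its closest partner was Atf3 at 0.59 (rho 0.58, 0.38 without 2 arrays, and 0.65 and 0.14 within slides 1 and 2). Atf3 was also loosely tied to the others, at 0.30 with Fos and 0.11 with Egr1. Ier3 had 0.39 with Fos (rho 0.46, 0.45 without 2 arrays), which was 0.60 within slide 1 and -0.22 within slide 2.

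**Figure D5:**
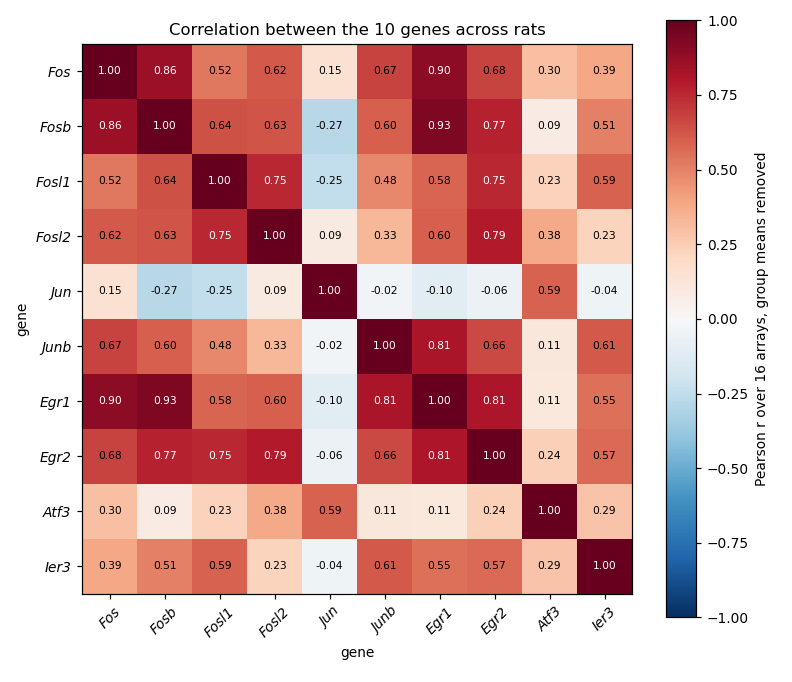
Pearson r between the 10 genes (rows and columns) over 16 arrays after subtracting group means, with the value in each cell and blue to red for -1 to 1. Fos, Fosb, Egr1 and Egr2 form cells of 0.68 to 0.93, and the Jun row lies between -0.27 and 0.59.

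Over the whole array, genes were compared with Fos and Egr1 with the group means left in, so these coefficients also hold differences between groups. The 6 named genes outside the list whose log2 signal followed Fos most closely over the 16 arrays were Rgs2 (Pearson r 0.92), Elfn2 (0.87), Ern1 (0.86), Gcnt4 (0.82), Frat1 (0.82) and Nab2 (0.82). For Egr1 they were Rgs2 (0.89), Nab2 (0.87), Actn3 (0.83), Ier2 (0.83), Dusp5 (0.80) and Hbegf (0.80). Spearman rho was 0.79 to 0.92 for these genes with Fos and 0.81 to 0.89 with Egr1, except Actn3 at 0.60. Elfn2 was dim, with means of -6.15 in WT vehicle and -6.03 in BRCA1+/- olaparib. Its means were -4.83 in WT olaparib and -4.10 in BRCA1+/- vehicle. Rgs2, which switches off G protein signalling, and Nab2, the corepressor that Egr factors induce, appear for both. Rgs2 read 4.18 ± 0.47 in BRCA1+/- vehicle and 3.10 ± 0.34 in BRCA1+/- olaparib (SD, n = 4). Its ranges there, 3.63 to 4.62 and 2.78 to 3.55, did not overlap, where 0.608% of all genes were lower without overlap. Rgs2 was picked for following Fos over the same arrays, and Fos did not overlap either, so this is not separate evidence. In wild-type rats Rgs2 read 3.23 ± 0.29 with vehicle and 3.55 ± 0.82 with olaparib.

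Other genes of the pathway were counted from lists that were chosen with earlier results known. Of 41 tested early-response genes outside the 10, 35 were lower with olaparib in BRCA1+/- rats (median -0.38), against 46.7% of all genes. None was called by limma (0% of all genes) and 2 had an unadjusted p under 0.05 (1.17% of all genes), namely Rgs2 at -1.08 ± 0.35 and Plk2, a polo-like kinase, at -1.34 ± 0.59. Areg, an EGF-family ligand of the ovulatory follicle, read -1.79 ± 0.94. With vehicle 32 of the 41 were higher in BRCA1+/- than in wild-type rats (median 0.28, against 42.2% of all genes), with 0 called by limma and 5 at an unadjusted p under 0.05 (5.5% of all genes). All 11 tested feedback phosphatases and RNA decay factors were lower with olaparib in BRCA1+/- (median -0.40), with Spred1 at -0.45 ± 0.29, Dusp5 at -0.46 ± 0.33 and Dusp10 at -0.45 ± 0.39, and none was called or had an unadjusted p under 0.05. The mean centred signal of the 41 genes followed that of the 10 with r = 0.84 over the 16 arrays (rho 0.83, 0.75 without 2 arrays), and that of the feedback genes with 0.75 (rho 0.65, 0.54 without 2). Group means were left in here too, so both coefficients also hold differences between groups.

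The remaining zipper factors had a smaller median difference. Of 16 other AP-1 and related factors, 13 were lower with olaparib in BRCA1+/- (median -0.11), against 46.7% of all genes. None was called, and Bach2, Atf2 and Batf2 had -0.57 ± 0.33, -0.29 ± 0.16 and 0.62 ± 0.36. Jund, the Jun family member that is expressed without a stimulus, read -0.48 ± 0.29. Egr3 differed by -0.21 ± 0.43, Nab1 by 0.01 ± 0.24 and Nab2 by -0.40 ± 0.23. Upstream of the 10 genes, 10 of 15 serum response and MAP kinase genes were higher with olaparib in BRCA1+/- (median 0.05, none called), with Mrtfb, a coactivator of serum response factor, at -0.69 ± 0.40. Downstream, 11 of 22 tested target genes were higher and 11 lower (median -0.08, none called), with Mmp13, a collagenase that AP-1 induces, at -2.39 ± 1.59 and the chemokine gene Cxcl2 at -1.39 ± 0.79.

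Over all genes the share called between slides was 7.9%, and the share at an unadjusted p under 0.05 was 23.9%. Of the 15 MAP kinase and serum response genes 1 was called, the Jun kinase gene Mapk8, at -0.48 ± 0.11 on slide 2 against slide 1 (adjusted p 0.0195 in limma), and 7 had an unadjusted p under 0.05. Limma called none of the other early-response, feedback, AP-1, Egr and Nab or target genes between slides, with 4 of 41, 0 of 11, 4 of 16, 1 of 3 and 0 of 22 at an unadjusted p under 0.05. Of 9 heat shock genes 5 were higher and 4 lower on slide 2 (median 0.013), and 2 were called, Hspa8 at 0.85 ± 0.15 and Hsph1 at 0.89 ± 0.18 (adjusted p 0.0029 and 0.00776 in limma). Of 10 hypoxia genes 6 were higher and 4 lower (median 0.10), and 1 was called, Ldha at 0.66 ± 0.15 (adjusted p 0.0196 in limma), while Pfkfb3 read -1.07 ± 0.41. These shares of calls rest on 1 or 2 genes a list.

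Signals of other lists are given beside the 10 genes as values, whether or not they moved with them. Their coefficients were taken with the group means left in, so they also hold differences between groups. The mean centred signal of hypoxia genes followed that of the 10 genes with r = 0.64 (rho 0.39, 0.36 without 2 arrays). Within slides 1 and 2 that r was 0.93 and 0.71. The hypoxia signal read 1.05 on WT olaparib replicate 4, 0.69 on BRCA1+/- vehicle replicate 4 and at most 0.46 elsewhere. T and NK cell genes (7 of 9 tested, all 7 well above background on all arrays) ranged from 0.26 to 0.91 in BRCA1+/- vehicle, above the -0.82 to 0.18 of WT vehicle, and from -0.73 to 0.65 in BRCA1+/- olaparib. Their r with the 10 genes was 0.54 (rho 0.55, 0.68 without 2 arrays, 0.73 and 0.22 within slides 1 and 2). Red blood cell genes were lower with olaparib in BRCA1+/- in 8 of 8 (median -0.66), against 46.7% of all genes. With vehicle 8 of 8 were higher in BRCA1+/- (median 0.39), against 42.2%. Limma called none, and 0 and 2 of the 8 had an unadjusted p under 0.05 (1.17 and 5.5% of all genes). Their mean centred signal was -2.22 on BRCA1+/- olaparib replicate 2 and 0.14 to 0.63 on the other rats of that group. Their r was -0.03 (rho 0.07, -0.13 without 2 arrays, -0.04 and -0.18 within slides 1 and 2). Endothelial genes had r = 0.51 (rho 0.52, 0.29 without 2 arrays, 0.81 and 0.44 within slides 1 and 2). Adipocyte genes ranged from -2.72 to -0.073 in WT vehicle and from -2.05 to 4.10 in WT olaparib, where replicate 4, high in 8 of the 10 genes, was the lowest. Their r was -0.34 (rho -0.26, -0.21 without 2 arrays, -0.46 and -0.07 within slides 1 and 2). Surface epithelium genes ranged from -1.69 to 0.16 in WT vehicle and from -2.28 to 2.14 in WT olaparib. Their r was -0.41 (rho -0.36, -0.15 without 2 arrays, -0.67 and -0.36 within slides 1 and 2). The oviduct list had r = 0.06 (rho 0.21, 0.24 without 2 arrays, -0.32 and 0.05 within slides 1 and 2). Heat shock genes had -0.03 (rho -0.20, -0.12 without 2, -0.51 and -0.15 within slides). Granulosa genes had 0.10 (0.37 and -0.045 within slides), theca and steroid genes 0.17 (0.08 and 0.43) and oocyte genes 0.14 (0.74 and -0.37). Macrophage, granulocyte and smooth muscle genes had -0.15, 0.21 and 0.006. The log2 of the array's 75th percentile had -0.32 (rho -0.28). The part of these cell types and states in the values of the 10 genes was not tested, beyond the values without the 6 arrays of high oviduct signal.

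Of the 4 genes with more than 1 probe, the further probes of Fosl2, Egr1 and Egr2 followed the probe used with r from 0.86 to 0.94 over the 16 arrays and gave olaparib differences in BRCA1+/- of -0.52 and -0.59 for Fosl2, -0.74 for Egr1 and -1.55 for Egr2. The 2 Jun probes followed each other less closely (r = 0.58), and the second, at chr5:115359410-115359469 (rn4), gave -0.49 with olaparib in BRCA1+/- against -0.13.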

How the data were processed

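Signals were made with Agilent Feature Extraction 10.7, per the submitters' processing notes (10.7.1.1 per the file headers), as background-subtracted intensity values on a linear scale that the authors deposited for each array, with the mean signal and local background intensity used in an alternative. The deposited table holds log2 values, which equal the log2 processed signal minus a constant near the 75th percentile of the array (r = 1 over 43267 probes). Its column medians were -4.22 to -3.60. Its scale, centring and direction follow from this. Spots flagged as outliers and controls were left out, leaving 45586 of 45598 probes, spots of a probe were averaged, and the 75th percentile was subtracted. Probes well above background in at least 3 arrays of a group were kept (26808).

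Group means were fitted in limma 3.58.1 (R 4.3.3, 12 residual degrees of freedom) over 20215 genes, two-sided, with Benjamini-Hochberg adjustment, and a gene was called at an adjusted p under 0.05. Slide and replicate number were added to that model in fits of their own. The fit was tested on simulated data. The members and the 21 lists were chosen with earlier results of these data known. Named genes were the 10 members, the 6 genes most like Fos and Egr1, and up to 3 genes of a pathway or stress list with the smallest p for olaparib in BRCA1+/- and for slide. Jund was named outside this rule after its values were seen. Brca1 was named as the gene of the genotype. Replicate numbers come from the sample titles. Same-numbered arrays deviated together in 13 of 24 pairs (r over 0.1, range -0.442 to 0.714), and in all 4 only between the BRCA1+/- groups (0.392 to 0.714), for which a fit with the number as a block was added after seeing the data. Alternatives were the background correction, quantile normalization, the deposited values, both filters, the slide, the replicate number, the probe rule, array weights and leaving out each array. Probe coordinates were taken from the arrays' own annotation (rn4) and not checked against a genome, and promoter sequences are RefSeq's in GRCr8. Their number limits the precision of these 16 arrays.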

Additional observations from a re-analysis of the deposited data

Results flagged for a closer look

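In groups of 4 rats, a value was singled out where its gap to the nearest of the others passed the 95% critical value of Dixon's ratio to the group's range, which chance gives in about 1 of 20 groups, and 4 of the 40 sets of a gene and a group met this. Fosb in BRCA1+/- olaparib was -2.34 on replicate 2, against -5.19 to -4.90 on the other 3 rats. Fosl1 in WT vehicle was -4.19 on replicate 1, against -3.04 to -2.83. Junb in BRCA1+/- vehicle was 0.68 on replicate 1, against -0.40 to -0.26. Ier3 in WT olaparib was 2.53 on replicate 4, against 1.99 to 2.06. The cause of these values was not tested.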

How the results depend on the processing

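In all group comparisons 0 of the 10 genes were called under each of the 29 or 30 settings run. With olaparib in BRCA1+/- 9 genes kept the lower direction under every setting that tested them, and Jun turned within slide 2 (0.23) and across the arrays left out in turn (-0.33 to 0.10). Replicate numbers as a replicate block called 0 of the 10 and 0 of all genes in each group comparison, as did the fit of the BRCA1+/- arrays alone, and the block changed no call. At an unadjusted p under 0.05 that block held 486 genes for olaparib in BRCA1+/- against 236 without it (1607 against 876 for olaparib in wild-type rats, 1806 against 1112 and 394 against 185 for genotype with vehicle and olaparib, 1403 against 695 for the interaction), and 1275 in the BRCA1+/- arrays alone. Differences that were small or unlike between slides turned as follows, and the cause was not tested. Normexp background correction gave 0.29 for Fosl1 with olaparib in wild-type rats and -0.044 for Fosl1 by genotype with olaparib. The Jun interaction became -0.063 with quantile normalization and -0.061 as the mean over probes. Within slide 1, olaparib in wild-type rats gave -0.013 for Egr2, -0.35 for Junb, -0.016 for Fosb, -0.35 for Egr1 and -0.064 for Fos, genotype with vehicle gave 0.13 for Jun, genotype with olaparib gave 1.33 for Egr2, 0.0067 for Junb, 1.13 for Fosb, 0.99 for Egr1 and 0.68 for Fos, and the Jun interaction was -0.44. Within slide 2, Fosl1 read 0.80 with olaparib in wild-type rats, Junb -0.20 and Fosl2 -0.11 by genotype with vehicle, and Ier3 0.018, Jun 0.086, Fosl2 -0.33 and Fosl1 -0.55 by genotype with olaparib. Array weights gave -0.033 for Junb with olaparib in wild-type rats, 0.016 for Jun by genotype with vehicle, 0.42 for Egr2, 0.075 for Ier3 and 0.11 for Egr1 by genotype with olaparib, and -0.16 for the Jun interaction. Leaving out the 6 arrays of high oviduct signal, chosen after seeing the data, gave 0.29 for Fosl2 and 1.90 for Fosl1 with olaparib in wild-type rats, -0.58 for Fosl2 and -1.06 for Fosl1 by genotype with olaparib, and -0.17 for the Jun interaction. With each array left out in turn, olaparib in wild-type rats ranged from -0.63 to 1.12 for Egr2, -0.097 to 0.66 for Atf3, -0.060 to 0.39 for Junb, -0.70 to 0.047 for Fosl2 and -1.78 to 0.52 for Fosl1. Genotype with vehicle ranged from -0.41 to 0.056 for Jun and -0.17 to 0.33 for Junb, and genotype with olaparib from -1.02 to 0.73 for Egr2, -0.20 to 0.27 for Ier3, -0.23 to 0.090 for Jun and -0.24 to 0.51 for Fosl2. The interaction ranged from -0.17 to 0.30 for Jun and -0.59 to 0.16 for Fosl2. Between slides 1 of the 10 was called, Atf3 (adjusted p 0.0475 in limma), where genes had to be well above background on all 16 arrays, and 0 to 1 were with each array left out, for slide as for replicate number.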
